A study of Homo sapiens with 60 samples.

Results

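Cells of HepG2, an established human liver carcinoma line, were cultured for 24 h with an ethanol extract of Panax Ginseng at 500 µg/mL (High dose) or 20 µg/mL (Low dose), and their messenger RNA was sequenced. HepG2 is 1 tumour line and stands for no other liver cell. The 6 libraries were chosen by their titles, which name the extract and the dose, and each dose had 3 libraries. They are 6 of the 60 libraries of a series that profiled single-herb extracts and herbal formulas in this line. The comparison used no vehicle library, and it asks which transcripts differed between the highest and the lowest dose of the same extract.

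Per the labels' protocols, the dried root was extracted with ethanol under ultrasonication, and the extract was filtered and freeze-dried before use. All 6 cultures carried the same set code in their sample descriptions and the same batch name in their titles, so neither separates High from Low. How much DMSO the treated cultures held is not stated in the labels, so dose and DMSO content cannot be told apart. Nor do they say that replicates were separate cultures. The p-values reflect the spread among libraries of a group, shared over all replicated groups of the series, and that spread may be technical. A Medium dose of 100 µg/mL (3 libraries) and the vehicle group (3 libraries, 0.1% DMSO in the sample labels and 2% in the series text) are given beside the results as background. The vehicle libraries carried another set code than the ginseng libraries.

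Ginseng root is known for its triterpene saponins, the ginsenosides. In liver cells, foreign and electrophilic compounds are known to free the transcription factor NRF2 from KEAP1, the adaptor that marks it for degradation, and NRF2 then binds antioxidant response elements together with small MAF proteins and induces genes of glutathione synthesis, thioredoxin reduction and carbonyl reduction. The SREBP factors drive the genes of sterol and fatty acid synthesis, and metallothioneins are small cysteine-rich proteins that bind zinc and copper and whose genes respond to free metal through the factor MTF1.

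Library totals were 22443520 to 33233215 counts at the High dose and 26313670 to 28190364 at the Low dose, and transcripts of the mitochondrial genome held 17.0 to 18.1% and 16.3 to 18.9% of them. The 10 hepatocyte markers fixed for the check of the label were all detected and summed to 63000 to 65300 CPM (counts scaled to library size) at the Low dose and 59000 to 61900 at the High dose. Of 8 fibroblast markers 4 had no counts (COL1A2, LUM, DCN and POSTN), and the list summed to 7.29 to 8.64 CPM at the Low dose and 6.58 to 6.7 at the High dose. Of 7 endothelial markers 3 had no counts (KDR, TEK and EMCN), and the sums were 2.91 to 3.43 and 2.16 to 2.87 CPM. Of 8 leukocyte markers PTPRC and CD3E had no counts, and the sum, 1230 to 1340 CPM at the Low dose and 1090 to 1190 at the High dose, came mostly from LYZ and CD68. The 6 biliary markers, with CFTR at 0, summed to 670 to 757 CPM at the Low dose and 900 to 956 at the High dose. The part of these marker levels in the results below was not tested.

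Between the 2 doses, 943 of 16284 tested genes differed (5.79%) in edgeR's quasi-likelihood test at a Benjamini-Hochberg adjusted p below 0.05, which is meant by "called" throughout. Of these, 476 were higher at the High dose (2.92% of the genes tested) and 467 were lower (2.87%). Most of the differences were small: the median absolute log2 change of the called genes was 0.24, the 90th percentile was 0.51, and 68 genes (0.418%) reached 1.5-fold, 24 higher and 44 lower. The 3 High libraries lay wholly above or wholly below the 3 Low libraries in 24.2% of all genes tested, and both this and the call held for 933 genes (5.73%). Leaving out 1 library lowered the count to 526 without High replicate 3, 554 without High replicate 1, 570 without Low replicate 1, 601 without Low replicate 2, 604 without Low replicate 3 and 642 without High replicate 2. The median log2 change over all genes tested was 0.00213, the value beside which the medians of the gene lists are read. Counts of list members called are read beside the shares of all genes tested, 2.92% higher and 2.87% lower.

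The aldo-keto reductases, NADPH-dependent enzymes that reduce aldehydes and ketones, held the steepest rises. AKR1B10, a reductase of aliphatic aldehydes and retinal (chr7:134527592-134541408, plus strand, GRCh38), was at 33.75, 34.5 and 32.59 CPM in the 3 Low libraries and at 102.1, 89.26 and 96.09 CPM in the 3 High libraries. The High libraries all lay far above the Low ones, and the log2 change was 1.51 (SE 0.0721, 2.85-fold, adjusted p = 1.706e-20 by edgeR). AKR1C2 (chr10:4987400-5018031, minus strand), which reduces steroids such as dihydrotestosterone, stood at 139.3, 131.6 and 143.3 CPM at the Low dose and at 329.2, 304.3 and 316.9 CPM at the High dose. The groups were far apart, with a log2 change of 1.20 (SE 0.0559, adjusted p = 1.406e-20 by edgeR). AKR1C1 (chr10:4963253-4983283, plus strand), which inactivates progesterone, went from 251.2, 270.5 and 264.8 CPM to 525.6, 499.1 and 533.1 CPM, and its log2 change was 0.99 (SE 0.0583, adjusted p = 4.85e-17 by edgeR). No High library overlapped a Low one for any of these 3 genes, and all 3 kept their calls under every alternative processing and without any single library.

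The other 7 tested members of the family were not called, so the list held 3 higher and 0 lower of 10 tested and its median log2 change was 0.03. AKR1C3, a close relative that reduces prostaglandins and androgens, was at 32.79, 31.96 and 33.12 CPM at the Low dose and 35.09, 38.89 and 32.37 CPM at the High dose. Its groups overlapped, and the log2 change of 0.12 (SE 0.0904, adjusted p = 0.5337 by edgeR) did not pass. AKR1C1 and AKR1C2 share long stretches of sequence: 31.1% of the 3657 stretches of 100 bases in the longest AKR1C2 transcript occur unchanged in an AKR1C1 transcript. Reads from such stretches can be assigned to either gene, so the split between the 2 is uncertain. AKR1C1 shared 0.288% of its stretches with AKR1C3, and AKR1B10 shared none of its 1491 with AKR1C1.

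The bases upstream of AKR1C1 and AKR1C2 are shown because these neighbours rose together and because their starts are nearly the same sequence. They were read from RefSeq (GRCh38.p14), 5′ to 3′ along each gene, and leave out annotated exons. The AKR1C1 stretch is chr10:4963165-4963252 on the plus strand, just before the annotated gene. The AKR1C2 stretch is chr10:5004024-5004107 on the minus strand, upstream of a start that lies inside the annotated gene.
AKR1C1: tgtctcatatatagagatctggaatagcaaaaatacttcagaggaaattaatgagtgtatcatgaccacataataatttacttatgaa
AKR1C2: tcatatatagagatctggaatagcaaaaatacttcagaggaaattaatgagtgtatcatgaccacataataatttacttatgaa
The 84 bases of AKR1C2 were identical to AKR1C1 at 84 of 84 aligned positions. Neither stretch holds the core of the antioxidant response element searched here, TGACNNNGC on either strand. Bases further upstream were not searched, so the absence holds for these short stretches only.

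**Figure D1:**
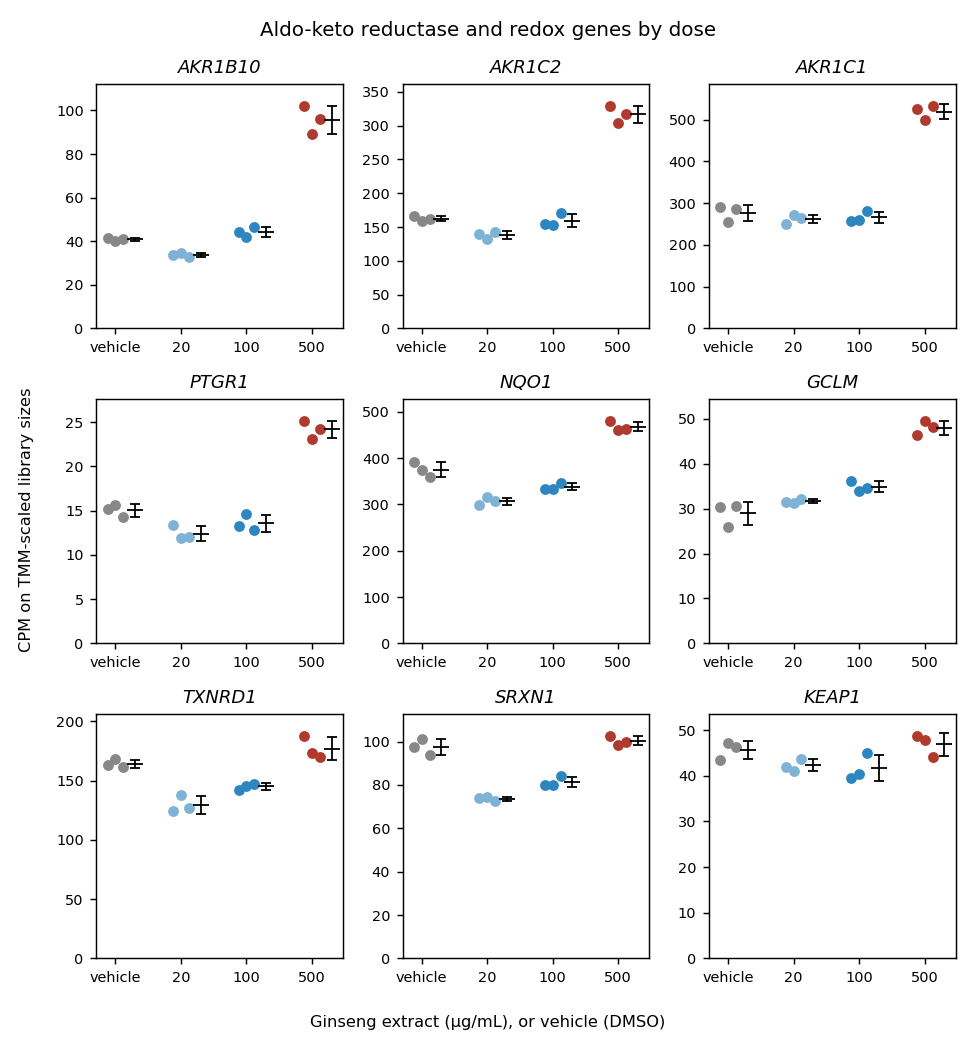
CPM on scaled library sizes (y axis, from 0) of 9 genes in the vehicle libraries and at 20, 100 and 500 µg/mL ginseng extract (x axis); points are the 3 libraries of a group, and the bar beside them is the mean ± SD. AKR1B10 stands at 89.26 to 102.1 CPM at 500 µg/mL and at 32.59 to 34.5 CPM at 20 µg/mL, whereas the 2 groups of KEAP1 lie close together.

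Of the regulators of the NRF2 system, 2 of 9 were higher (MAFG and SQSTM1), none was lower, and all 9 changes were positive, with a median of 0.12. SQSTM1, the autophagy receptor p62 that also sequesters KEAP1, was at 153.7, 163.5 and 155.5 CPM at the Low dose and 213.3, 213.2 and 205.4 CPM at the High dose (log2 change 0.42, SE 0.0463, adjusted p = 1.514e-08 by edgeR). The groups did not overlap. MAFG, a small MAF partner of NRF2, rose by 0.20 on the log2 scale (adjusted p = 0.008069 by edgeR) and lost its call without High replicate 1, which left 1 called regulator. NFE2L2, the gene of NRF2 itself, was at 176.6, 165.3 and 183.9 CPM at the Low dose and 176.9, 177 and 187.1 CPM at the High dose, with overlapping groups. KEAP1 was at 42.01, 41.13 and 43.76 CPM at the Low dose and 48.73, 47.83 and 44.03 CPM at the High dose, and its log2 change of 0.15 (SE 0.0628, adjusted p = 0.1784 by edgeR) did not pass.

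Phase II and redox enzymes held 12 higher and 0 lower genes of 18 tested, with a median log2 change of 0.28. PTGR1, which reduces prostaglandins and other unsaturated carbonyls (chr9:111549722-111599893), was at 13.35, 11.89 and 12.02 CPM at the Low dose and 25.15, 23.16 and 24.26 CPM at the High dose. Its High libraries lay far above the Low ones, and the log2 change was 0.96 (SE 0.0598, adjusted p = 2.576e-16 by edgeR). PIR, an iron-binding nuclear protein, rose by 0.70 (SE 0.0603, adjusted p = 9.933e-12 by edgeR), from 14.53, 13.22 and 13.62 CPM to 23.47, 22.13 and 21.68 CPM. NQO1, a quinone reductase and the usual marker of this response, was at 299.5, 315 and 306.7 CPM at the Low dose and 480.2, 461.2 and 462.8 CPM at the High dose, without overlap (log2 change 0.61, SE 0.0484, adjusted p = 9.645e-13 by edgeR). The bile salt and glucuronide exporter ABCC3 rose by 0.50 (SE 0.0587, adjusted p = 5.96e-08 by edgeR). The remaining called members were SRXN1, OSGIN1, ABCC2, EPHX1, FTL, FTH1, UGDH and ABHD4, with log2 changes of 0.19 to 0.45. HMOX1, heme oxygenase 1, was at 63.77, 64.74 and 64.67 CPM at the Low dose and 65.86, 70.14 and 72.9 CPM at the High dose. Its High libraries all lay above the Low ones, by little, and its log2 change of 0.11 (SE 0.0574, adjusted p = 0.3069 by edgeR) did not pass.

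Genes of glutathione synthesis and recycling held 5 higher and 0 lower of 13 tested, with a median log2 change of 0.18. The 5 were both subunits of the rate-limiting enzyme glutamate-cysteine ligase (GCLC and GCLM), the cystine importer SLC7A11, glutathione reductase (GSR) and the peroxidase GPX2. GCLM was at 31.53, 31.3 and 32.23 CPM at the Low dose and 46.42, 49.49 and 48.07 CPM at the High dose (log2 change 0.60, SE 0.0639, adjusted p = 5.703e-09 by edgeR), and GCLC rose by 0.36 (SE 0.0407, adjusted p = 1.951e-08 by edgeR). GPX2 was at 431.9, 409.1 and 458.7 CPM and then at 587.2, 631 and 589.1 CPM (log2 change 0.48). SLC7A11 rose by 0.38, from 38.39, 40.21 and 36.71 CPM to 50.48, 49.07 and 50.37 CPM. In each of these genes every High library lay above every Low library. The changes of the glutathione synthetase GSS (0.08) and of the peroxidases GPX1 (-0.01) and GPX4 (-0.01) did not pass.

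Glutathione S-transferases, which attach glutathione to electrophiles, held 3 higher of 13 tested and a median near that of all genes, at 0.00337. The 3 were GSTA1 (log2 change 0.58, SE 0.0876), MGST1 (0.49, SE 0.0582) and GSTA2 (0.47, SE 0.0798). GSTA1 was at 20.99, 25.96 and 26.79 CPM at the Low dose and 35.17, 38.98 and 36.27 CPM at the High dose, without overlap, and GSTA1 and GSTA2 are near-identical copies between which reads may be split. The thioredoxin list held 4 higher and 1 lower of 13 tested, with a median of -0.00435. TXNRD1, thioredoxin reductase 1, went from 124.3, 138.3 and 126.7 CPM to 187.8, 173.4 and 169.9 CPM (log2 change 0.45, SE 0.0525, adjusted p = 5.149e-08 by edgeR). SRXN1, which repairs oxidised peroxiredoxins, went from 73.98, 74.42 and 72.5 CPM to 102.6, 98.53 and 99.82 CPM (log2 change 0.45). Both genes had High libraries wholly above the Low ones. Thioredoxin itself (TXN) rose by 0.34 and lost its call without Low replicate 3, which left 2 called members. TXNIP, the inhibitor of thioredoxin, fell by 0.26 and was called in the full set of libraries and without High replicate 2, but not without any of the other 5 libraries.

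Of 10 tested genes of the pentose phosphate pathway and NADPH supply 4 were higher and 0 lower, with a median log2 change of 0.12. They were transketolase (TKT, 0.29), transaldolase (TALDO1, 0.28), ribose-5-phosphate isomerase (RPIA, 0.26) and the mitochondrial folate enzyme MTHFD1L (0.23). TKT was at 292.4, 296.1 and 289.7 CPM at the Low dose and 358.6, 354.6 and 358.2 CPM at the High dose, and these narrow groups did not overlap. TALDO1 lost its call without High replicate 1 or High replicate 2. Among 9 tested sulfotransferases SULT1A2 (0.27), SULT1A3 (0.44) and SULT1A4 (0.36) were higher. SULT1A3 and SULT1A4 are near-identical copies, so their separate values are uncertain, SULT1A3 lost its call without High replicate 3 or Low replicate 3, SULT1A4 lost it by DESeq2 and without any library other than High replicate 3, and the count fell to 1 without Low replicate 3.

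The upstream bases of 3 called redox genes are shown because each holds the response element core TGACNNNGC (in capitals, with GCTTAGTCA being the core on the opposite strand). They come from RefSeq (GRCh38.p14), run 5′ to 3′ along the gene and leave out annotated exons. The GCLM stretch is chr1:93909456-93909680 on the minus strand, with the core's first base 34 bases before the start site; the TXNRD1 stretch is chr12:104215529-104215778 on the plus strand, with the core 99 bases before; and the EPHX1 stretch is chr1:225825104-225825353 on the plus strand, upstream of 1 of its starts, with the core 78 bases before.
GCLM: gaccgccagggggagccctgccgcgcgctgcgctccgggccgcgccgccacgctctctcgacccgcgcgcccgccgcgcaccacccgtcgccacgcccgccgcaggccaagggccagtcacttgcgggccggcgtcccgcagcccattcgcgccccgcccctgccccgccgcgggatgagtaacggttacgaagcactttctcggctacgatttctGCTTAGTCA
TXNRD1: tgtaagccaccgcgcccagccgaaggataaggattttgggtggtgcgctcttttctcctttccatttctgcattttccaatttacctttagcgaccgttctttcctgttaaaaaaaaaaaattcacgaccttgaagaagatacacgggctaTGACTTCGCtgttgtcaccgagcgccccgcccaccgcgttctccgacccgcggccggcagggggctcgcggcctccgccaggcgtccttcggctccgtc
EPHX1: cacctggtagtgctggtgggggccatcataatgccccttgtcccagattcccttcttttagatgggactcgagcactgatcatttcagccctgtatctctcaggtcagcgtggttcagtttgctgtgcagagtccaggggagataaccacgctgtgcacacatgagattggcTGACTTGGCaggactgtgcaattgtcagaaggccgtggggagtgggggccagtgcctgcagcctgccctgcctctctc
A match describes the letters only. Over windows of 250 bases before to 50 bases after each start, the core was present on either strand in 13.3% of 35116 windows and in 16.1% of the 27305 genes with a window. Of the 30 redox-list genes called higher, 24 had a window and 6 of these (25%) held the core, which were EPHX1, GCLM, GPX2, MGST1, PIR and TXNRD1. Of the 45 redox-list genes not called, 36 had a window and 10 of these (27.8%) held it. The share with the core in these windows was therefore no higher among the called genes. Elements outside the windows were not searched, so the shares do not tell which genes have an element.

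Of 27 tested proteasome subunits 11 were higher by small amounts and 16 were not called, none was lower, all 27 changes were positive, and the median log2 change was 0.17. PSMD11, a lid subunit of the regulatory particle, was at 109.3, 107 and 110.2 CPM at the Low dose and 139.4, 132 and 133.3 CPM at the High dose (log2 change 0.31, SE 0.0371, adjusted p = 8.934e-08 by edgeR). PSMD1, a base subunit, went from 154.9, 169.1 and 167.9 CPM to 196.2, 191.9 and 197.1 CPM (log2 change 0.25, SE 0.0394, adjusted p = 2.848e-05 by edgeR). Neither gene's groups overlapped. The count was 5 without High replicate 1 or Low replicate 1, 7 without High replicate 3 and 6 without Low replicate 3.

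Aminoacyl-tRNA synthetases, which charge transfer RNAs, held 9 higher and 0 lower of 20, all 20 changes were positive, and the median was 0.14. VARS1 (valine) was at 176.1, 173.2 and 167.4 CPM and then at 196, 201 and 204.7 CPM (log2 change 0.22, SE 0.0359), and KARS1 (lysine) rose by 0.21 and NARS1 (asparagine) by 0.18. The count fell to 5 without High replicate 1, Low replicate 1, Low replicate 2 or High replicate 3, and to 4 with no filter on low counts. Heat shock chaperones held 5 higher and 0 lower of 20, with a median of 0.13. HSPA8, the constitutive HSP70, went from 1468, 1491 and 1617 CPM to 1727, 1796 and 1772 CPM (log2 change 0.21, SE 0.0432, adjusted p = 0.001334 by edgeR), and HSP90AA1 rose by 0.18. The groups of both genes were separate. HSPA1A, the stress-inducible HSP70, was at 112.3, 113.3 and 121.4 CPM at the Low dose and 111.5, 115.9 and 121.5 CPM at the High dose, with overlapping groups. The chaperone count fell to 3 without High replicate 1, Low replicate 2, High replicate 3 or Low replicate 3, and likewise with no filter on low counts.

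**Figure D2:**
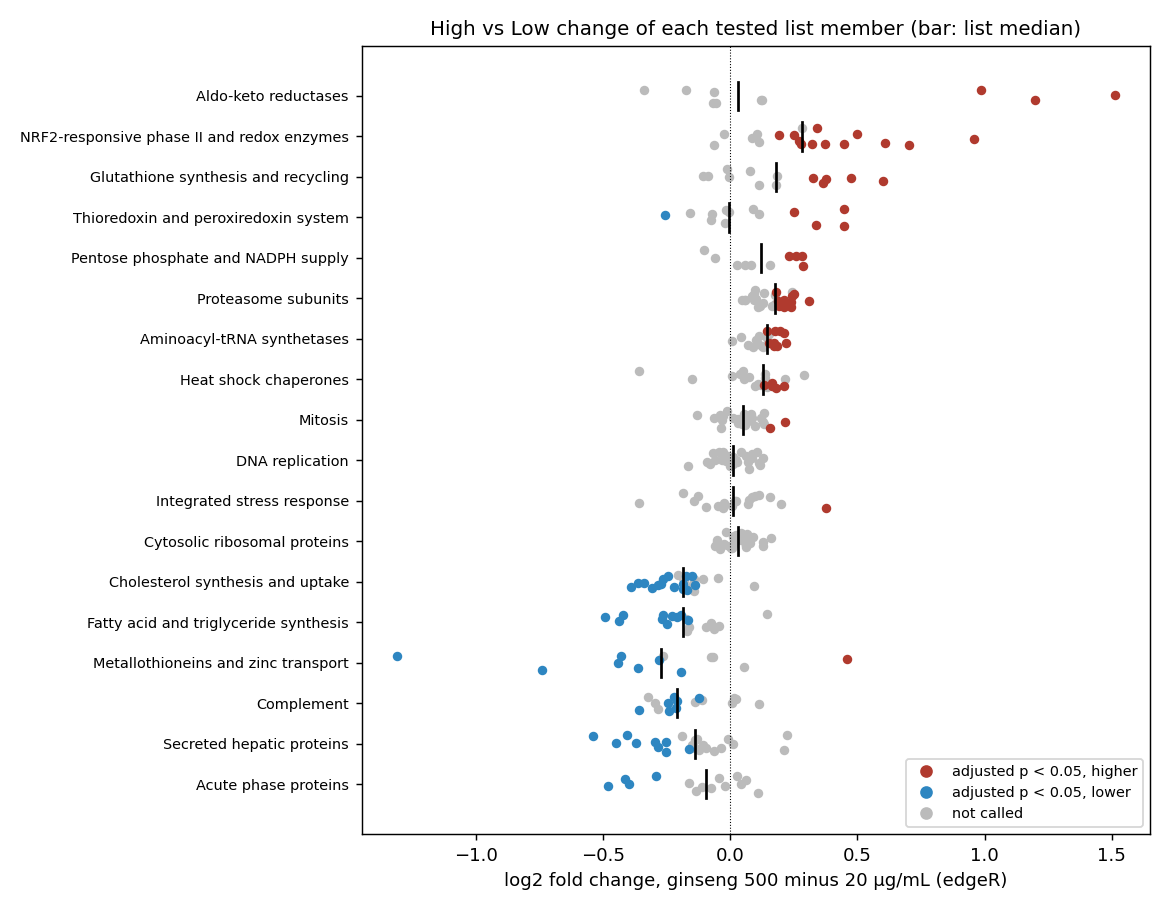
Log2 change from 20 to 500 µg/mL (x axis) of each tested member of 18 gene lists (rows); red and blue points are called higher and lower, grey points are not called, and the black bar is the list median. All 27 proteasome subunits lie right of 0, and 24 of 25 genes of cholesterol synthesis and uptake lie left of it.

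Sterol and fatty acid synthesis genes were lower at the High dose. Of 25 tested genes of cholesterol synthesis and uptake 15 were lower and 0 higher, 24 changes were negative, and the median log2 change was -0.19. HMGCS1, which makes the precursor of mevalonate, was at 533.2, 543.3 and 536.3 CPM at the Low dose and 417.4, 444.9 and 440 CPM at the High dose (log2 change -0.31, SE 0.0374, adjusted p = 1.16e-07 by edgeR). LSS, which closes the sterol ring system, went from 239.3, 245.2 and 236 CPM to 199.9, 189 and 180.6 CPM (log2 change -0.34, SE 0.0429). The sterol reductase TM7SF2 had a log2 change of -0.39 (SE 0.0593). In these 3 genes the High libraries lay below every Low library. INSIG1 had too few counts to be tested. The count of lower genes was 9 without High replicate 2 and 8 without Low replicate 2.

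Fatty acid and triglyceride synthesis held 10 lower and 0 higher of 18 tested genes, with a median of -0.18. ACSS2, which makes acetyl-CoA from acetate (chr20:34872146-34927962), was at 141, 153.9 and 150.3 CPM at the Low dose and 107.4, 103.4 and 106.1 CPM at the High dose, with separate groups (log2 change -0.49, SE 0.0432, adjusted p = 2.106e-11 by edgeR). The desaturase FADS2 went from 384.5, 347.8 and 369.6 CPM to 259.2, 265.4 and 289.5 CPM (log2 change -0.44, SE 0.0455), and PNPLA3, a lipid droplet protein, went from 26.78, 27.8 and 27.78 CPM to 23.06, 18.93 and 19.64 CPM (log2 change -0.42). SCD, the stearoyl-CoA desaturase, stood at 3299, 3429 and 3389 CPM and then at 2781, 2770 and 2849 CPM (log2 change -0.27, SE 0.0446). None of these groups overlapped. FASN was at 2061, 1979 and 1864 CPM and then at 1726, 1815 and 1702 CPM, and its log2 change of -0.17 (adjusted p = 0.07009 by edgeR) did not pass, although it did by DESeq2, with no filter and when fewer groups entered the fit (lowest adjusted p = 0.0197 by edgeR). The core of the sterol regulatory element, TCACNCCAC, was searched on either strand. Of the lower genes of these 2 lists 19 had a promoter window, and 1 of these, SREBF2, held the core. It was present in 1.13% of all windows and in 1.39% of all genes with a window.

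Of 12 tested genes of metal binding and zinc transport 7 were lower and 1 was higher, with a median log2 change of -0.27. MT1F, a metallothionein on chromosome 16 (chr16:56657694-56660698), was at 46.47, 52.51 and 50.55 CPM at the Low dose and 30.81, 28.41 and 30.42 CPM at the High dose, and its groups were well apart (log2 change -0.74, SE 0.122, adjusted p = 5.799e-05 by edgeR). MT2A went from 582.5, 515.3 and 552.2 CPM to 383.2, 427.6 and 403.8 CPM (log2 change -0.44, SE 0.129), and MT1G from 136.9, 126.2 and 134.1 CPM to 90.93, 106.1 and 97.51 CPM (log2 change -0.43, SE 0.118). MT1M, at 1.142 CPM or less in these libraries, had a log2 change of -1.31 (SE 0.364). The zinc exporters SLC30A1 (-0.19) and SLC30A10 (-0.28) were lower, and the zinc importer SLC39A10 was higher, from 13.5, 14.8 and 15.01 CPM to 19.74, 20.53 and 19.11 CPM (log2 change 0.46, SE 0.0659, adjusted p = 5.339e-06 by edgeR). Metallothionein genes are close copies of each other, so reads may be split between them. The count of lower genes depended on single libraries: it was 2 without High replicate 1, 3 without Low replicate 3, and 4 without Low replicate 1, High replicate 2, Low replicate 2 or High replicate 3. MT2A and MT1G both lost their calls without High replicate 1, Low replicate 1, High replicate 3 or Low replicate 3, and MT1M lost its call without High replicate 1, High replicate 2 or Low replicate 2. The metal response element letters TGCACNC or TGCGCNC were present in 2 of the 3 lower genes with a promoter window (MT2A and SLC30A1). They were present in 29.6% of all windows and in 33.4% of all genes with a window.

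In the iron and heme list 2 genes were higher and 3 lower of 17 tested, with a median of 0.03. The 2 were the subunits of the iron store ferritin, FTH1 (log2 change 0.32, SE 0.0761) and FTL (0.28, SE 0.0745). FTH1 stood at 2031, 1762 and 1870 CPM at the Low dose and at 2372, 2476 and 2221 CPM at the High dose, without overlap. FTH1 lost its call without High replicate 2 or Low replicate 2, FTL without either of these and also without High replicate 1 or Low replicate 1, and the count of higher genes was 0 without High replicate 2 or Low replicate 2 and 1 without Low replicate 1. Transferrin (TF), transferrin receptor 2 (TFR2) and the iron exporter SLC40A1 were lower, with log2 changes of -0.25, -0.26 and -0.19, and the count of lower genes was 1 without High replicate 3. TFR2 lost its call without Low replicate 1 or High replicate 3. HAMP, the iron hormone hepcidin, was at 5.016, 3.572 and 4.518 CPM and then at 4.657, 4.409 and 3.858 CPM, with overlapping groups.

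The gene for the glucose-releasing phosphatase of liver, G6PC1 (chr17:42900797-42913369), was the most strongly lower of the protein-coding genes named by the rule for large falls. It stood at 23.31, 27.29 and 23.16 CPM at the Low dose and at 13.08, 11.69 and 10.02 CPM at the High dose. The groups were far apart, and the log2 change was -1.08 (SE 0.15, adjusted p = 2.514e-06 by edgeR). No other gene of gluconeogenesis passed among 10 tested, including PCK1 (-0.45) and FBP1 (0.12), although 1 more passed without High replicate 1. The count of lower genes in the list was 3 in place of 1 under several alternatives. These were no filter on low counts, fewer than all groups in the fit, and the replicate block. FABP1, the liver fatty acid binding protein, went from 322.7, 320.2 and 307.7 CPM to 217.8, 213.3 and 203 CPM (log2 change -0.58, SE 0.14, adjusted p = 0.006696 by edgeR). CYP8B1, which sets the share of cholic acid in bile, went from 5.975, 5.192 and 5.372 CPM to 3.762, 3.865 and 3.281 CPM (log2 change -0.59, SE 0.123, adjusted p = 0.001596 by edgeR). Neither of these 2 genes' groups overlapped. GNMT, a methyltransferase that uses S-adenosylmethionine, went from 3.725, 3.903 and 4.198 CPM to 2.161, 2.325 and 1.995 CPM (log2 change -0.86, SE 0.17). CPT1A, the entry step of mitochondrial fatty acid oxidation, was at 54.21, 54.35 and 50.8 CPM and then at 52.86, 53.24 and 53.3 CPM, with overlapping groups.

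Plasma proteins made by hepatocytes were lower where they passed. Of 23 tested secreted proteins 9 were lower and 0 higher, with a median log2 change of -0.14. TTR, the thyroxine and retinol carrier transthyretin, was at 197.8, 196.3 and 190.6 CPM at the Low dose and 136, 128.4 and 137.8 CPM at the High dose (log2 change -0.54, SE 0.0724, adjusted p = 1.275e-06 by edgeR). APOM, APOC3 and PLG, which encode 2 apolipoproteins and plasminogen, had log2 changes of -0.45, -0.41 and -0.37. ALB was at 9650, 10030 and 10040 CPM and then at 8790, 9434 and 8359 CPM, and its log2 change was -0.16 (SE 0.0494, adjusted p = 0.04206 by edgeR). The call was lost when fewer groups entered the fit and without any one ginseng library other than High replicate 2. AFP did not pass (-0.11, adjusted p = 0.1128 by edgeR). In bulk RNA, fewer cells that express a gene and less of its RNA per cell cannot be told apart. None of 14 liver-enriched transcription factors was called by edgeR, against 5.79% of all genes tested, and 1 passed without High replicate 2. Of the 14 changes 13 were negative, the median was -0.07 and the lowest was -0.20. HNF4A had a log2 change of -0.01.

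Of 16 tested complement genes 7 were lower and 0 higher, with a median of -0.21. CFB, the protease of the alternative pathway, went from 166, 164.8 and 150.6 CPM to 132.3, 120 and 123.5 CPM (log2 change -0.36, SE 0.0408, adjusted p = 2.984e-08 by edgeR), and C2, its counterpart in the classical pathway, from 240.1, 242.6 and 242.4 CPM to 205.2, 201.4 and 207.9 CPM (log2 change -0.24, SE 0.0322, adjusted p = 1.373e-06 by edgeR). Both genes' High libraries lay below all Low ones. C3, C4A, C5, C8A and CFI were also lower, with log2 changes of -0.12 to -0.25. C8A lost its call without Low replicate 2 or High replicate 3, and C4A without either of these, Low replicate 1 or High replicate 2. C4A and C4B are near-identical copies, so their reads may be split. The count of lower complement genes was 4 without High replicate 3. Among 14 tested acute phase genes 4 were lower and 0 higher, with a median of -0.09. ITIH3, an inhibitor chain that binds hyaluronan, went from 124, 133.5 and 128.8 CPM to 98.42, 86.51 and 92.37 CPM (log2 change -0.48, SE 0.0751), and the protease inhibitor SERPINA3 from 194.7, 184.8 and 184.5 CPM to 144, 143.9 and 135.5 CPM (log2 change -0.41, SE 0.0748). C4BPA, a complement inhibitor, had a log2 change of -0.40, and ceruloplasmin (CP) one of -0.29 that lost its call without High replicate 1 or Low replicate 1.

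**Figure D3:**
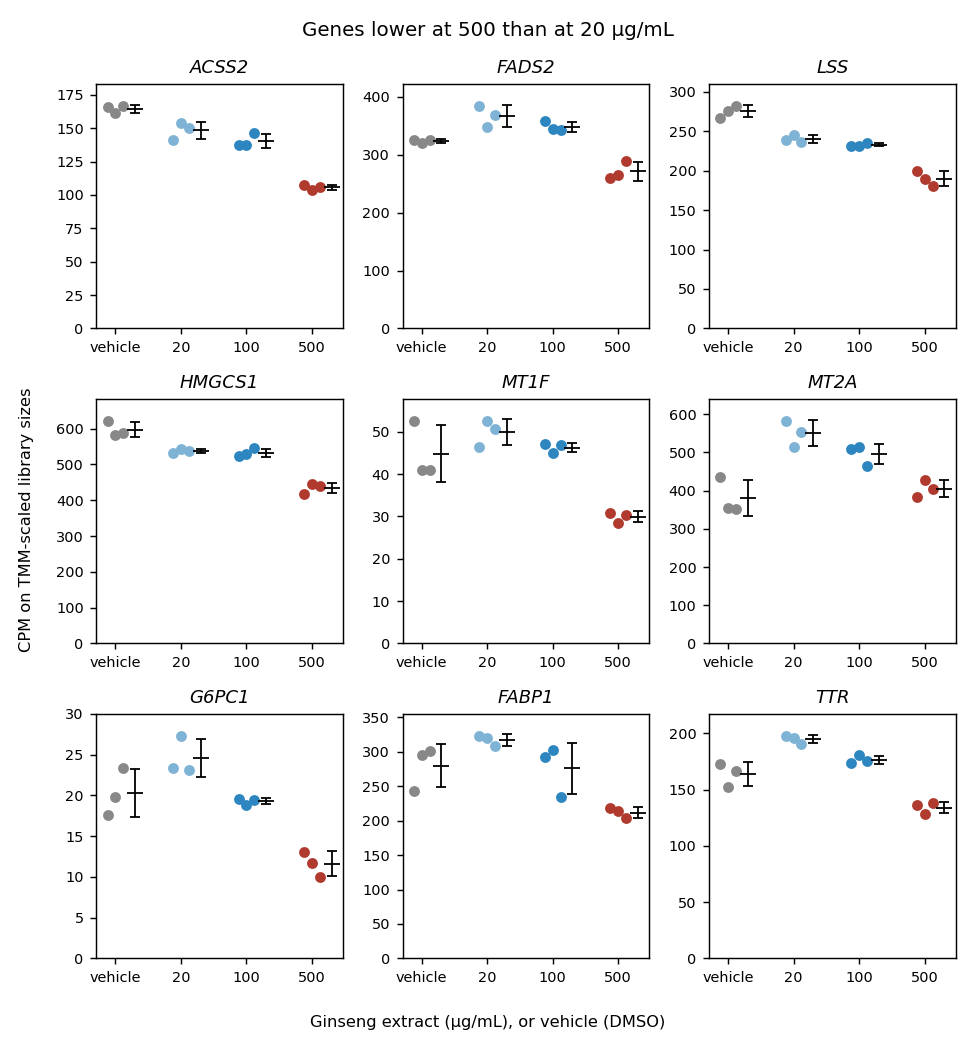
CPM on scaled library sizes (y axis, from 0) of 9 genes called lower at 500 than at 20 µg/mL, in the vehicle libraries and at the 3 doses (x axis); points are libraries and the bar is the mean ± SD of 3. G6PC1 lies at 10.02 to 13.08 CPM at 500 µg/mL and at 23.16 to 27.29 CPM at 20 µg/mL, with the 100 µg/mL libraries between them.

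Of 10 tested targets of the aryl hydrocarbon receptor NQO1 alone was called, and of 10 tested genes of the drug-sensing receptors PXR and CAR 2 were, against 5.79% of all genes. CYP1A1, its classical target, was at 9.958, 8.506 and 9.498 CPM at the Low dose and 12.11, 12.74 and 12.28 CPM at the High dose. Its groups did not overlap, and its log2 change of 0.41 (SE 0.136, adjusted p = 0.06256 by edgeR) did not pass, although it passed by DESeq2, with no filter, when fewer groups entered the fit and with the replicate block. In the PXR and CAR list CYP3A7, a fetal liver cytochrome P450, was lower (13.83, 13.26 and 13.66 CPM against 9.164, 9.119 and 11.35 CPM, log2 change -0.47, SE 0.069, adjusted p = 7.897e-06 by edgeR). UGT1A1, which conjugates bilirubin, was higher by 0.22 (adjusted p = 0.04565 by edgeR) and lost this call by DESeq2, with no filter, when fewer groups entered the fit and without any library other than High replicate 3. CYP3A4 was at 0.3319 CPM or less in these 6 libraries and did not pass.

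Among genes outside the redox lists that passed the rule for large rises, the complexin CPLX2, a regulator of vesicle fusion, went from 155.8, 152.2 and 157.7 CPM to 258.9, 278.6 and 266.9 CPM (log2 change 0.79, SE 0.0602, adjusted p = 2.624e-13 by edgeR). SPP1, the secreted phosphoprotein osteopontin, went from 392.1, 316.9 and 371.1 CPM to 536.7, 589.6 and 545.7 CPM (log2 change 0.63, SE 0.0732, adjusted p = 4.234e-08 by edgeR). SPP1 was the only biliary marker called; KRT19, SOX9 and EPCAM had log2 changes of -0.01 to 0.06. The immediate early list held 4 higher and 0 lower of 26, with a median of 0.04: IER3 (0.45), JUN (0.39), SPRY4 (0.28) and MYC (0.21). JUN was at 17.22, 16.53 and 17.22 CPM and then at 22.87, 22.28 and 21.6 CPM, without overlap. SPRY4 lost its call without Low replicate 2 and MYC without High replicate 2 or Low replicate 2. The count was 2 without Low replicate 2, and 7 when fewer groups entered the fit or with the replicate block.

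The other genes with large rises were expressed at a few CPM or less. SLC5A11, a sodium-coupled inositol transporter, went from 1.18, 1.215 and 0.9249 CPM to 2.086, 2.023 and 2.483 CPM (log2 change 0.98, SE 0.171), and TEX19 from 2.766, 2.43 and 2.383 CPM to 4.284, 4.469 and 4.479 CPM (log2 change 0.80, SE 0.111). The long noncoding gene ENSG00000231683 (chr6:53561289-53617171, minus strand) rose by 0.89 and lies across GCLC on the same strand, so reads of the 2 may be shared. AADAC (0.94), DUSP13 (0.82), PANX2 (0.81) and the transcribed pseudogene NMRAL2P (0.81) were also called. AADAC lost its call without any library other than Low replicate 3, by DESeq2 and with no filter, PANX2 without any library other than Low replicate 3, DUSP13 without High replicate 1 or Low replicate 1, and NMRAL2P without High replicate 1.

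Among the large falls, MYO1G (-0.79) and OR2I1P (-0.88) kept their calls without any single library, and IL21R (-0.85) lost its call without any one of the 6. The antisense genes MIA2-AS1 (-1.02), LIFR-AS1 (-0.80) and TSPEAR-AS2 (-0.76) were called, but the sources used here do not say whether counting used strand, so reads from them and from their partners cannot be told apart. MIA2-AS1 lost its call without High replicate 2, and LIFR-AS1 without any library other than Low replicate 1 or High replicate 3, by DESeq2, with no filter and when fewer groups entered the fit. RAB37 (-0.84) lost its call by DESeq2, with no filter and without any one library. ENSG00000254054 (-0.88) lost it by DESeq2, with no filter, when fewer groups entered the fit and without High replicate 1, High replicate 2 or Low replicate 2, and ENSG00000279641 (-1.09) lost it without Low replicate 1 or High replicate 3.

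The Medium dose lay nearer to the Low dose than to the High dose by the counts of called genes, which share libraries and were not tested against each other. Between Medium and Low, 1 gene was called by edgeR (0.00614%), and 725 genes had an unadjusted p below 0.05. That gene was AKR1B10, at 44.35, 41.83 and 46.34 CPM in the Medium libraries, above all 3 Low libraries (log2 change 0.40, SE 0.0736, adjusted p = 0.04734 by edgeR). Its call was lost when any one of the 6 libraries was left out. Between High and Medium, 163 genes were called (1%), 69 higher (0.424%) and 94 lower (0.577%), and the count fell to 93 without High replicate 2, 65 without High replicate 3 and 78 without Medium replicate 3. AKR1B10 (log2 change 1.12), AKR1C2 (0.99), AKR1C1 (0.96) and PTGR1 (0.83) were all called higher at the High than at the Medium dose. AKR1C1 was at 258.1, 259.9 and 281.2 CPM at the Medium dose, which overlaps the Low libraries. G6PC1 was at 19.55, 18.83 and 19.48 CPM at the Medium dose, between the other doses, and it was called between High and Medium (-0.73, adjusted p = 0.00552 by edgeR) but not between Medium and Low (-0.35).

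The vehicle libraries were not part of any test here, and since they carry another set code, a gap between vehicle and Low cannot be told apart from a difference between sets. NQO1 was at 391.8, 373.3 and 359.2 CPM in the vehicle libraries, above the 3 Low and below the 3 High libraries. AKR1B10 was at 41.49, 40.24 and 41.09 CPM and AKR1C2 at 165.8, 158.5 and 161.4 CPM in the vehicle libraries, also between Low and High. SLC7A11, at 29.83, 25.98 and 28.16 CPM, and GCLM, at 30.4, 25.92 and 30.47 CPM, were lowest in the vehicle libraries. For GSTA1 the vehicle values of 41.22, 36.4 and 35.79 CPM overlapped the High libraries.

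The ginseng comparison was set beside the same doses of Atractylodis Rhizoma, another single-herb ethanol extract of the series, whose 6 libraries are not shared with ginseng and carry another set code. Atractylodis was taken because, among the single-herb extracts, its number of called genes was the most similar to that of ginseng. The choice therefore used these data, and the other single-herb extracts are not reported here. With Atractylodis, 1044 genes were called between High and Low (6.41%), 552 higher (3.39%) and 492 lower (3.02%). Of these, 548 were also called with ginseng in the same direction, which is 58.1% of the ginseng calls and 52.5% of the Atractylodis calls. Over all 16284 tested genes the 2 sets of log2 changes had a Pearson correlation of 0.136 and a Spearman correlation of 0.421, given as a description across genes. AKR1B10 was at 35.49, 35.7 and 33.59 CPM at the Low dose and 103, 98.79 and 100 CPM at the High dose of Atractylodis, and the ginseng change minus the Atractylodis change was -0.02 (95% interval -0.222 to 0.189). The corresponding differences were 0.08 for AKR1C2 (-0.0809 to 0.236), 0.11 for AKR1C1 (-0.0532 to 0.279) and -0.01 for NQO1 (-0.149 to 0.127).

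When the 2 High against Low changes were tested against each other, 0 genes differed between ginseng and Atractylodis by edgeR (0%), with 447 at an unadjusted p below 0.05, and 0 by DESeq2, with 259. The SE of this difference had a median of 0.084 over the genes called with ginseng, whose median absolute log2 change was 0.24. Small differences could thus go uncalled, and 0 calls does not mean that the changes were equal. The count was 1 or 2 when Atractylodis High replicate 1, Atractylodis Low replicate 1, Atractylodis High replicate 3, ginseng Low replicate 1 or ginseng High replicate 3 was left out. The smallest adjusted p was 0.0528, for MYLIP, an E3 ubiquitin ligase. MYLIP was at 3.651, 4.566 and 4.02 CPM at the Low dose and 2.533, 2.899 and 3.326 CPM at the High dose of ginseng, against 3.712, 3.774 and 4.067 CPM and 4.601, 5.448 and 5.426 CPM with Atractylodis. With ginseng its High libraries lay below the Low ones (called, and lost without High replicate 1 or Low replicate 2 and with only the groups compared in the fit), and with Atractylodis they lay above. CYP3A7 followed, with a log2 change of -0.47 with ginseng and 0.02 with Atractylodis and a difference of -0.49 (adjusted p = 0.0647 by edgeR).

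Sibjeondaebo-tang, a herbal formula given as a water extract, counts ginseng among its herbs, its doses are those of the whole formula, and its libraries carry yet another set code. Of the 170 genes called between its High and Low doses (1.04%), 85 were higher and 85 lower (0.522% each), and 87 were called in the same direction with ginseng, which is 51.2% of the formula's calls and 9.23% of the ginseng calls. The changes of ginseng and the formula differed in 66 genes (0.405%), 25 higher (0.154%) and 41 lower (0.252%) with ginseng, and in 40 genes without ginseng High replicate 3. AKR1B10 was at 32.32, 36.79 and 30.46 CPM at the Low dose and 49.18, 52.08 and 56.85 CPM at the High dose of the formula, a smaller separation than with ginseng. The ginseng change was larger by 0.85 for AKR1B10 (95% interval 0.636 to 1.06, adjusted p = 4.42e-07 by edgeR), by 0.85 for AKR1C2 (0.686 to 1.01) and by 0.77 for AKR1C1 (0.605 to 0.939). For NQO1 the difference was 0.20 (SE 0.0683, adjusted p = 0.2857 by edgeR) and did not pass.

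Large differences from the formula were also found in HAMP and CYP1A1, which were not called with ginseng, and in G6PC1, which was called. HAMP was at 3.503, 5.663 and 3.905 CPM at the Low dose and 0.454, 0.6182 and 0.5354 CPM at the High dose of the formula, whereas its ginseng groups overlapped, and the difference of the log2 changes was 3.00 (SE 0.293, adjusted p = 2.595e-09 by edgeR). CYP1A1 was at 11.75, 12.1 and 12.7 CPM and then at 53.83, 56.3 and 49.16 CPM with the formula, and the difference was -1.71 (SE 0.181, adjusted p = 1.967e-08 by edgeR). The formula's High libraries were far above its Low libraries, while with ginseng CYP1A1 changed by 0.41 and was not called. G6PC1 overlapped between the doses of the formula, at 20.13, 20.53 and 24.75 CPM and then 20.66, 19.82 and 19.08 CPM, and differed from ginseng by -0.94 (SE 0.209, adjusted p = 0.0187 by edgeR). This last call was lost without formula High replicate 1, Low replicate 1 or Low replicate 2 and without ginseng High replicate 2, Low replicate 2 or High replicate 3.

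**Figure D4:**
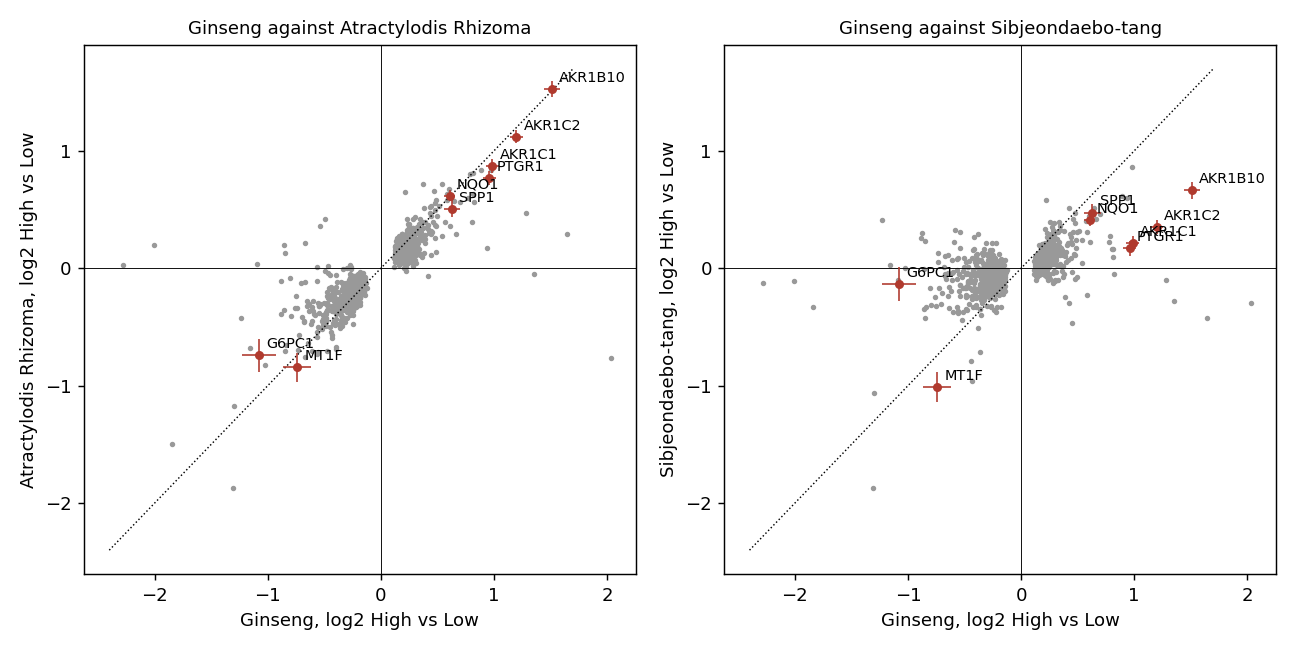
Log2 change from Low to High of each gene called with ginseng (x axis) against its log2 change with Atractylodis Rhizoma (left, y axis) and with Sibjeondaebo-tang (right, y axis); grey points are genes, red points with bars are named genes ± SE, and the dotted line marks equal changes. AKR1B10 lies on the line for Atractylodis (difference -0.02) and below it for the formula (difference 0.85).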

How the data were processed

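The authors deposited expected counts per gene, made with RSEM 1.3.3 and STAR 2.7.3a on GRCh38 after Trim Galore 0.6.5 and FastQC 0.11.9, per the submitters' processing notes. The roles of these tools, their annotation and whether counting used strand are not given in the sources used here. Libraries were made from 1 µg of total RNA with a directional kit, per the labels' protocols. Of the nonzero expected counts 23.4% were not whole (tolerance 0.005), and all were rounded. The table held 60675 genes, and 210 of its 270 columns were not used. Symbols came from the reference tables for 56558 genes, and positions from GENCODE 29.

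All 19 replicated groups (54 libraries) entered 1 fit (edgeR 4.0.16, R 4.3.3) with 35 residual degrees of freedom, filterByExpr, TMM scaling and Benjamini-Hochberg adjustment over 16284 genes. The other groups share their spread with the ginseng libraries, and the biological coefficient of variation was 5.63%. CPM are on TMM-scaled library sizes, standard errors come from the fitted change and its F statistic, and 95% intervals use 35 degrees of freedom. Changes of 2 extracts were compared as 1 contrast. The scripts were checked on simulated data. Alternatives were DESeq2 1.42.0, its size factors, no filter, fewer groups in the fit, a replicate block, no mitochondrial genes and each library left out.

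The members and lists were chosen with earlier results of these data known, so lists have counts and medians and no test. Named genes were the 12 largest called rises and 12 largest falls with separate groups and a mean of at least 1 CPM in the higher group, up to 4 called members of each list with the largest change, a fixed set, and the 5 largest differences in each direction from another extract. The 6 libraries hold 22443520 to 33233215 counts each, and counting error limits genes near 1 CPM most. Values of some members of the lists are not reported here.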

Additional observations from a re-analysis of the deposited data

Results flagged for a closer look

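The change from the Low to the High dose differed between ginseng and the formula Sibjeondaebo-tang in 66 genes by a test of the difference itself (edgeR, adjusted p below 0.05). Given here are the 5 largest differences in each direction among those with a mean of at least 1 CPM in the highest group, 10 genes in all; AKR1C2, AKR1C1, PTGR1 and GSTA1 are among the other genes that passed. Values are the ginseng log2 change minus that of the formula. HAMP, the iron hormone hepcidin, differed by 3.00, and its ginseng groups overlapped while the formula's High libraries were all below 1 CPM. ID3 and ID1, inhibitors of DNA binding that respond to BMP signals as HAMP does, differed by 1.503 and 1.151. ID1 was at 84.68, 85.03 and 75.39 CPM at the Low dose and 38.66, 38.83 and 43.37 CPM at the High dose of the formula, against 78.26, 89.22 and 86.87 CPM and 96.37, 92.76 and 88.78 CPM with ginseng. CYP1A1 and ALDH3A1, targets of the aryl hydrocarbon receptor, differed by -1.71 and -1.79. ZNF114 differed by 0.92 and AKR1B10 by 0.85. G6PC1, FABP1 and CYP8B1 differed by -0.94, -0.91 and -0.81.

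Of 190 values of these 10 differences under the alternatives, 175 kept the call, 15 lost it and 0 changed sign. The losses were all in G6PC1, FABP1 and CYP8B1. FABP1 lost the call without formula High replicate 1 or Low replicate 1 or without ginseng High replicate 3. CYP8B1 lost it without any of these or without ginseng Low replicate 1, and in the 2 fits of fewer groups. G6PC1 lost it without formula High replicate 1, Low replicate 1 or Low replicate 2 or without ginseng High replicate 2, Low replicate 2 or High replicate 3.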

How the results depend on the processing

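Of 119 named genes called between High and Low, 69 kept the call in all 13 alternatives, 32 lost it only when a library was left out and 18 lost it with all libraries in the fit; none of the called genes changed sign. Of the named genes not called, 6 were called in 1 or more alternatives. Leaving out 1 library gave 526 to 642 called genes, 248 to 302 higher and 263 to 340 lower; 65 to 119 for High against Medium, 0 to 1 for Medium against Low, 0 to 2 for the difference from Atractylodis and 40 to 70 for that from the formula. A sample fewer leaves less to test with, and no other cause was tested. With all libraries, High against Low gave 798 to 1158 calls. Medium against Low gave 3 by DESeq2, 0 with DESeq2 size factors, 93 with no filter, 3 with only the groups compared and 0 without mitochondrial genes. With no filter, High against Medium gave 285, the difference from Atractylodis 61 and that from the formula 189; more genes were tested, 33286. The fit with the Medium groups added gives no value for the 2 comparisons that involve Medium.

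Same-numbered ginseng libraries did not deviate together (correlations -0.0611 to 0.0662, with every tested gene given the same weight). The main fit did not pair samples by number, and a shared effect of same-numbered libraries was not tested. With the replicate block, High against Low gave 1129 calls in place of 943. Medium against Low gave 6 in place of 1, and High against Medium 256 in place of 163. The difference from the formula gave 93 in place of 66, and that from Atractylodis 0 in both fits. The block thus gave more calls in each comparison except that with Atractylodis.

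Genes near no change turned sign. CPT1A was -0.00296 by DESeq2, -0.00294 with its size factors, -0.00165 with no filter, -0.00528 and -0.00438 in the fits of fewer groups and -0.00246 without mitochondrial genes. Over all 13 alternatives the ranges were -0.031 to 0.0172 for CPT1A, -0.0246 to 0.0435 for HSPA1A and -0.0331 to 0.0763 for DDIT3. They were -0.139 to 0.0906 for HAMP, -0.00543 to 0.117 for ALDH3A1 and -0.0716 to 0.0154 for MCM2. Counting error limits genes near 1 CPM.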

Other observations

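Several gene groups held 0 to 2 calls between the ginseng doses. In lists of this size such counts are near the 5.79% called of all genes tested, and they are not read as a trait of these groups. None of 20 genes of the unfolded protein response was called by edgeR, and their median log2 change was 0.06; HSPA5, its main chaperone, was at 885.4, 951.4 and 943.4 CPM at the Low dose and 1039, 932.7 and 979.1 CPM at the High dose. In the integrated stress response 1 of 20 genes was called, the cystine importer SLC7A11, while DDIT3 and ASNS had log2 changes of 0.02 and 0.09. None of 26 DNA replication genes, 30 cytosolic ribosomal protein genes, 24 nuclear genes of oxidative phosphorylation or 13 mitochondrially encoded genes was called, with medians of 0.01, 0.03, 0.00883 and -0.03. In mitosis AURKA (0.16) and CDC20 (0.22) were higher of 24 genes and CDK1 was not called (-0.04); the count of 2 fell to 0 without High replicate 1 or Low replicate 1 and to 1 without any of the other 4 libraries, and AURKA also lost its call with no filter and with only the groups compared in the fit.

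The counts that follow are read beside the 2.92% of all genes tested called higher and the 2.87% called lower. Among 20 p53 targets 3 were lower, the death gene BBC3 (-0.41), TP53INP1 (-0.35) and the repair gene DDB2 (-0.19). CDKN1A had a log2 change of -0.09. BBC3 lost its call without High replicate 1 or Low replicate 1, and DDB2 without High replicate 2, Low replicate 2, High replicate 3 or Low replicate 3 and with no filter. Autophagy genes held 2 higher, SQSTM1 (0.42) and LAMP1 (0.13), and 2 lower, WIPI1 (-0.23) and ULK1 (-0.23), of 23. LAMP1 lost its call with no filter, with only the groups compared in the fit and without any library other than High replicate 3, and ULK1 without Low replicate 1 or High replicate 3. Of the glucocorticoid receptor targets FKBP5 was higher (0.15) and SGK1 (-0.36), PER1 (-0.27) and MT2A (-0.44) were lower of 10; PER1 lost its call with no filter (adjusted p = 0.0502 by edgeR), FKBP5 likewise and without High replicate 1, High replicate 2, Low replicate 2 or Low replicate 3, and MT2A without High replicate 1, Low replicate 1, High replicate 3 or Low replicate 3. ACTA2, a smooth muscle actin, fell by 0.28 on the log2 scale, from 66.79, 62.16 and 67.45 CPM to 53.01, 57.16 and 51.35 CPM. IFIT1 was the only interferon-response gene called of 17 (-0.52), from 3.651, 3.351 and 3.557 CPM to 2.496, 2.355 and 2.528 CPM. That count is near the 5.79% called of all genes tested and is not read as a trait of the list.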
